A study of Mus musculus with 6 samples.

Results

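The 10 genes of iron storage, transport and sensing described here were measured in the dorsal hippocampus of mice in which the lncRNA Snhg11 had been knocked down. They stand among 55401 genes in the count files. All 10 passed the filter on low counts, which kept 19969 genes. The list starts from Fth1, holds genes of known iron handling, and was selected with results of this same comparison known. The differences between groups are therefore given for these genes as a description, with no test. The data are bulk RNA-seq of 6 WT mice aged 4 months, littermates of the Ts65Dn line, each with 1 library of total RNA. Control-ASO (n = 3) and Snhg11-ASO (n = 3) were infused into the dentate gyrus of each hemisphere at 50 μg, and the dorsal hippocampus was cut from the ventral part 3 days later. An ASO is a short modified DNA strand that pairs with an RNA and has it cut by RNase H. Control-ASO holds the bases of Snhg11-ASO in scrambled order. Both groups received an infusion, and no untreated animals are among these samples. Effects of the needle or of an ASO as such were therefore not measured, and whether they were equal in both groups was not tested. The tissue was not sorted, so all hippocampal cell types contribute to each value.

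Cells take up iron mostly as transferrin-bound ferric iron through the transferrin receptor, move it out of the endosome through a divalent metal transporter, store the surplus inside ferritin and release iron through ferroportin. Heme is a further source, opened by heme oxygenase. Iron regulatory proteins read the iron level and bind short RNA hairpins called iron-responsive elements (IREs). A bound hairpin in a 5′ UTR blocks translation, as in ferritin, whereas bound hairpins in the 3′ UTR of the transferrin receptor protect its mRNA from decay. RNA-seq counts mRNA, so it can show the mode of control that acts on decay and does not measure the one that acts on translation. In the brain, oligodendrocytes and microglia are the cells richest in iron and ferritin, and transferrin is made mainly by oligodendrocytes and the choroid plexus.

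The hairpins that set these genes apart are shown first, because their place in the mRNA differs between the ferritins, ferroportin and the transferrin receptor. Annotated UTRs of protein-coding transcripts were searched for a C, 5 bases, the loop CAGTGN and 5 bases that pair with the first 5 (G-T pairs allowed), on the transcript strand. The pattern was found in a 5′ UTR of 30 of 20916 genes (0.143%) and in a 3′ UTR of 128 of 21704 genes (0.59%). It was found in 4 of the 10 genes: once in the 5′ UTR of each of Fth1, Ftl1 and Slc40a1, and 4 times in the 3′ UTR of Tfrc. No match in the other members says only that these letters are not in their annotated UTRs. The matches are printed 5′ to 3′ as DNA letters of the mRNA strand from the GENCODE M21 transcripts, with the 6 loop bases in capitals. The outermost 5 bases at each end flank the pattern, and their pairing was not checked. They lie at chr19:9982733-9982759 (plus strand) for Fth1, chr7:45459780-45459806 (minus strand) for Ftl1, chr1:45925466-45925492 (minus strand) for Slc40a1 and between 32631220 and 32631737 on chromosome 16 (plus strand) for Tfrc, all on GRCm38.
Fth1, 5′ UTR: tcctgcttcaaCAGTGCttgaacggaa
Ftl1, 5′ UTR: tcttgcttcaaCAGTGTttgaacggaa
Slc40a1, 5′ UTR: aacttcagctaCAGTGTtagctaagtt
Tfrc, 3′ UTR, site a: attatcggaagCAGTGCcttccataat
Tfrc, 3′ UTR, site b: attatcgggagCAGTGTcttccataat
Tfrc, 3′ UTR, site c: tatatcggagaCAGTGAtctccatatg
Tfrc, 3′ UTR, site d: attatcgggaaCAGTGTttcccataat

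Libraries held 28951250 to 43997537 read pairs on genes of the expected strand. Snhg11 itself was at 551, 436 and 209 CPM (a count scaled to library size, with TMM factors) under Control-ASO and at 139, 65.4 and 69.4 under Snhg11-ASO, so the knockdown was visible in every treated sample. Its log2 fold change was -2.13 ± 0.43 (standard error, as after every ± on a log2 fold change below). The Benjamini-Hochberg adjusted p was 0.395 in edgeR and 3.79e-05 in DESeq2. The library labelled Snhg11-ASO replicate 1 stood apart from its group, with Spearman correlations across genes of 0.959 and 0.958 to replicates 2 and 3, which correlated at 0.991 with each other, and values are given below with and without it. All 10 markers of hippocampal neurons passed the filter, among them Prox1 of granule cells and Wfs1 and Fibcd1 of CA1. Throughout, sample values are listed for replicates 1, 2 and 3 of a group in that order.

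Both ferritin genes and transferrin need care when read from these counts, because the counting leaves out pairs that fit several places or several genes. Of the 50-base windows of the Ftl1-201 transcript, 90.6% also occur in a transcript of another gene. Among these genes is Ftl1-ps1, which is 99.6% identical over 910 bases. Both strands of the other transcripts were searched, so this value is not the part of pairs lost. Pairs of Ftl1 that fit several places are left out, so its level is too low by a factor that was not measured. The share of such windows was 6.59% for Fth1-201 and 79.8% for Trf-201. The annotated gene Gm20425 shares 63.5% of the exonic bases of Trf on the same strand. For the other 7 genes the share was 0%. The gene model Gm10252 lies on the strand opposite to 26.5% of the exonic bases of Ftl1, and counts of both strands together held 0.322 times the Ftl1 pairs counted by strand. How far this loss differed between libraries was not tested.

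**Figure D1:**
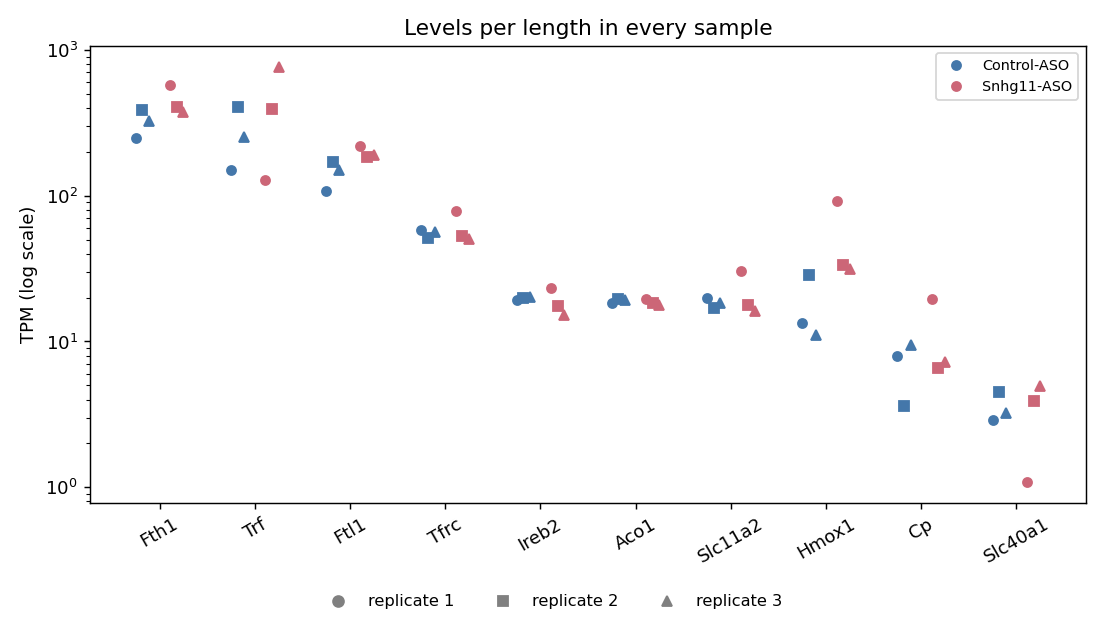
TPM (level per merged exonic length, log scale) of the 10 genes in each of the 6 samples, ordered by the Control-ASO mean, with colours for groups and symbols for replicates. The points fall from Fth1, at 250 to 384 TPM in Control-ASO, to Slc40a1, at 2.91 to 4.49 TPM.

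Levels per length in Control-ASO samples are given as counted, and since most of the Ftl1 and Trf sequence is shared with other genes, the order of Fth1, Trf and Ftl1 is not established. In TPM, which divides counts by exonic length, Fth1 was at 321 ± 67.1, Trf at 270 ± 129 and Ftl1 at 143 ± 32.4 (SD, n = 3). Fth1 and Trf overlapped between samples, as did Trf and Ftl1. Tfrc, the transferrin receptor, followed at 55.4 ± 3.56 TPM, below every Ftl1 value. Ireb2, Aco1, Slc11a2 and Hmox1 had Control-ASO means between 17.7 and 19.8 TPM that did not differ beyond their spread. Cp at 7.01 ± 3.02 TPM lay below every Hmox1 value, and Slc40a1 at 3.54 ± 0.835 TPM overlapped with Cp. Merged exons of Fth1 include retained introns and add up to 3469 bases, whereas its longest protein-coding transcript has 1494. With the lengths of such transcripts the Control-ASO mean of Fth1 was 635 ± 132 TPM (SD, n = 3), above every Trf value. The lower order changed as well. Cp, at 6.49 to 16.7 TPM, then overlapped with Hmox1, at 10.5 to 27.4 TPM. Ireb2 (27.2 to 28), Slc11a2 (21 to 24.7) and Aco1 (18.7 to 19.8) no longer overlapped, so their order depends on the length used.

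The mRNAs of both ferritin chains had higher means after Snhg11-ASO. In bulk tissue, fewer cells of a type and less RNA per cell cannot be told apart, for these or any of the genes that follow. Fth1 (ENSMUSG00000024661, chromosome 19, 9980598 to 9985098, plus strand) encodes the heavy chain, the ferroxidase that oxidises iron as it enters the shell. It was at 307, 486 and 380 CPM under Control-ASO and at 686, 493 and 486 CPM under Snhg11-ASO. The groups met at 486 CPM, where the order of Control-ASO replicate 2 and Snhg11-ASO replicate 3 depended on the scaling. The means were 391 ± 90.1 and 555 ± 114 CPM (SD, n = 3 per group), a ratio of 1.42. The log2 fold change was 0.51 ± 0.21, and 0.33 ± 0.18 without Snhg11-ASO replicate 1.

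Ftl1 (ENSMUSG00000050708, chromosome 7, 45457944 to 45459884, minus strand), the light chain that promotes mineralisation of the stored iron, was at 50.6, 83.3 and 67.6 CPM under Control-ASO. Under Snhg11-ASO it was at 102, 86.2 and 95.4 CPM, each above every Control-ASO sample. The log2 fold change was 0.49 ± 0.18, close to that of Fth1, and 0.43 without Snhg11-ASO replicate 1. Across the 6 samples the chains moved together. Fth1 exceeded Ftl1 by 6.06, 5.84 and 5.62 times in the CPM of Control-ASO replicates 1 to 3 and by 6.75, 5.72 and 5.09 times in those of Snhg11-ASO replicates 1 to 3. These ratios compare samples only, given the loss of Ftl1 pairs. Control-ASO replicate 1 had the lowest level of both chains, and without it the log2 fold changes were 0.35 for Fth1 and 0.31 for Ftl1.

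**Figure D2:**
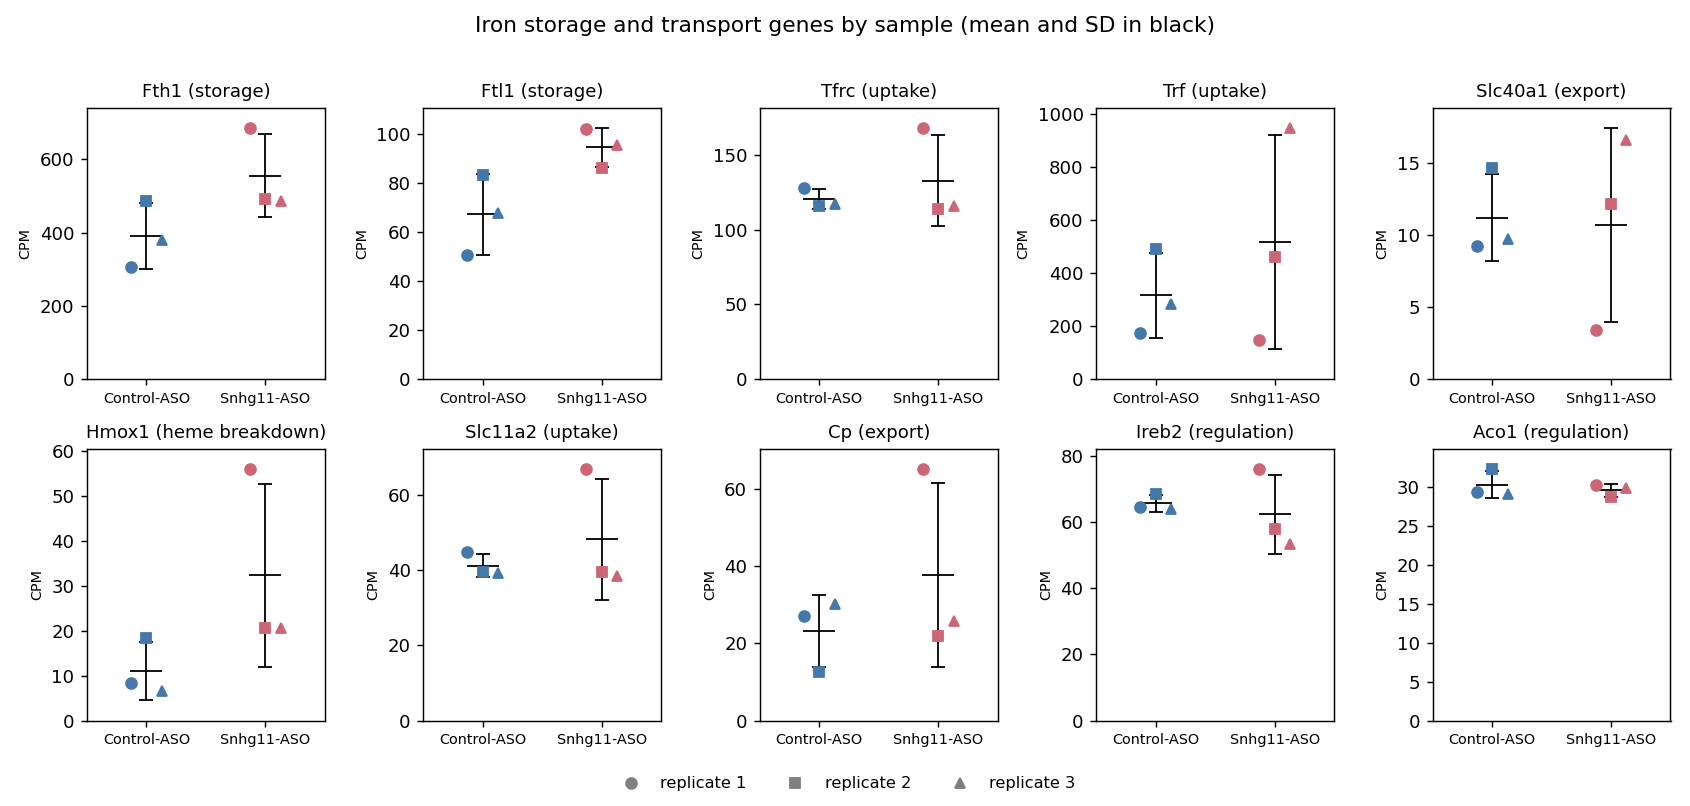
CPM of each of the 10 genes in the 6 samples, one panel per gene on a linear axis from 0, with the mean and SD of each group in black and symbols for replicates. All Snhg11-ASO points lie above all Control-ASO points for Ftl1 and Hmox1, and Trf spans 148 to 948 CPM within the Snhg11-ASO group.

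Hmox1 showed the widest difference of the 10 genes. Hmox1 (ENSMUSG00000005413, chromosome 8, 75093621 to 75100589, plus strand) encodes the inducible heme oxygenase, which frees iron from heme and is a known target of the stress-responsive factor Nrf2. It was at 8.26, 18.3 and 6.5 CPM under Control-ASO and at 55.8, 20.6 and 20.5 CPM under Snhg11-ASO. Every Snhg11-ASO sample was above every Control-ASO sample, though replicates 2 and 3 exceeded Control-ASO replicate 2 only slightly. The ratio of the means was 2.93 and the log2 fold change 1.55 ± 0.53. Without Snhg11-ASO replicate 1 the log2 fold change was 0.9 ± 0.4, and without Control-ASO replicate 2 it was 2.13. Hmox2, the constitutive heme oxygenase, had means of 41.4 ± 2.9 and 44.2 ± 2.22 CPM (SD, n = 3 per group), with overlapping groups.

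Summed markers of macrophages and of red blood cells also differed between the groups without overlap. The macrophage sums of the groups overlap when Lgals3 is left out, and the red blood cell sums when Hbb-bs is left out. The macrophage sum and Hmox1 put the Snhg11-ASO samples in the same order and the Control-ASO samples in a different one. The summed CPM of 8 markers of infiltrating macrophages was 43.6, 34.3 and 31 under Control-ASO and 163, 49.9 and 45.8 under Snhg11-ASO, with 8 of 8 genes higher in the mean. F13a1 alone gave 69.5 of the 163 CPM in Snhg11-ASO replicate 1. Without that library 6 of the 8 genes had a higher mean, and the ratio of the summed means was 1.32 in place of 2.38. None of them was at 0 counts in all libraries. Of the 8 genes only Lgals3 had groups apart, beside 7.73% of all genes apart and higher. It was at 1.7, 4.93 and 3.59 CPM under Control-ASO and at 22.9, 10.3 and 10.7 CPM under Snhg11-ASO. The summed CPM of red blood cell genes, of which 4 of 6 passed the filter, was 52, 51 and 39.9 under Control-ASO and 55.9, 56.8 and 95.2 under Snhg11-ASO, so that the treated library with the highest Hmox1 had the lowest sum of its group. Of the 4 red blood cell genes past the filter, Hba-a1 and Hbb-bs had groups apart, and Hba-a2 and Hbb-bt overlapped. Among the controls Hmox1 was highest in replicate 2, and both marker sums in replicate 1. The part of either cell type in the level of Hmox1 was not tested.

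**Figure D3:**
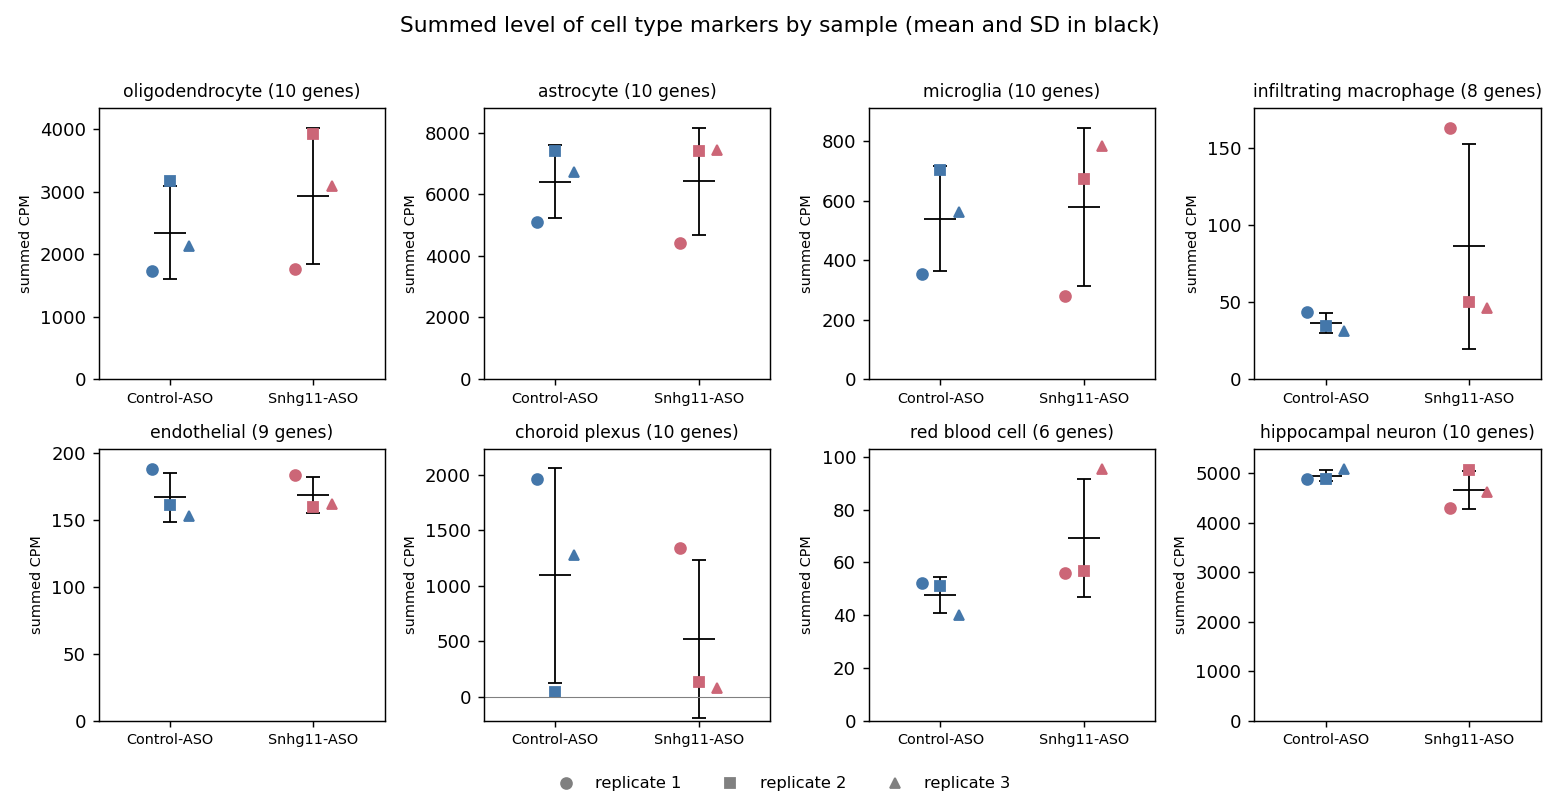
Summed CPM of 8 sets of cell type markers in the 6 samples, one panel per set on a linear axis, with the mean and SD of each group in black and symbols for replicates. The sums of macrophage and red blood cell markers separate the groups, though not without Lgals3 and Hbb-bs, respectively. Most macrophage markers overlap singly. Choroid plexus markers range from 41.3 to 1960 within Control-ASO.

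The 3 genes of transferrin-bound uptake had log2 fold changes above 0, and each turned below 0 when 1 treated library was left out. Trf (ENSMUSG00000032554, chromosome 9, 103204001 to 103230444, minus strand), the transferrin that carries ferric iron, varied more within groups than between them. Control-ASO replicates 1 to 3 had 175, 492 and 282 CPM, and Snhg11-ASO replicates 1 to 3 had 148, 459 and 948 CPM. The log2 fold change of 0.71 ± 0.65 moved widely with the samples used. It was -0.06 without Snhg11-ASO replicate 3, 1.16 ± 0.46 without Snhg11-ASO replicate 1, and 0.42 and 1.18 without Control-ASO replicates 1 and 2. With the replicate number as a block it was 0.45. Markers of oligodendrocytes, the main source of transferrin in the parenchyma, summed to 1730, 3180 and 2130 CPM in Control-ASO and to 1770, 3930 and 3100 CPM under Snhg11-ASO, and all 10 had a higher mean in Snhg11-ASO. Trf was 8.37% to 15.5% of that sum in 5 samples and 30.5% in Snhg11-ASO replicate 3. That library had the highest Trf of all samples but not the highest oligodendrocyte sum. Its choroid plexus markers summed to 75 CPM, beside 41.3 to 1960 CPM in Control-ASO. The part of oligodendrocytes or of choroid plexus in Trf was not tested.

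Tfrc (ENSMUSG00000022797, chromosome 16, 32608920 to 32632794, plus strand), the transferrin receptor whose 3′ UTR carries the 4 hairpins printed above, was steady in 5 of the 6 samples. It was at 128, 116 and 117 CPM under Control-ASO and at 168, 114 and 116 CPM under Snhg11-ASO. The log2 fold change of 0.14 ± 0.16 became -0.06 ± 0.08 without Snhg11-ASO replicate 1. Slc11a2 (ENSMUSG00000023030, chromosome 15, 100387898 to 100425072, minus strand), the divalent metal transporter that carries ferrous iron out of endosomes, had the same shape. Its Control-ASO samples were at 44.9, 39.5 and 39.3 CPM and its Snhg11-ASO samples at 66.8, 39.5 and 38.4 CPM. For Slc11a2 the log2 fold change was 0.22 ± 0.22, and -0.08 ± 0.09 without replicate 1. For both uptake genes, then, the difference between the means was not seen without that library.

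Iron export was represented by Slc40a1 and Cp. Slc40a1 (ENSMUSG00000025993, chromosome 1, 45908068 to 45926523, minus strand) encodes ferroportin, the known cellular iron exporter. It was at 9.25, 14.7 and 9.74 CPM under Control-ASO and at 3.38, 12.2 and 16.6 CPM under Snhg11-ASO, so that the treated group held both the lowest and the highest sample. The log2 fold change was -0.07 ± 0.52 and turned to 0.36 without Snhg11-ASO replicate 1, while without replicate 3 it was -0.53. Slc40a1 and the summed CPM of 10 microglia markers put the 6 samples in the same order, with marker sums of 354, 703 and 560 CPM in Control-ASO and 278, 674 and 783 CPM under Snhg11-ASO. Their part in the level of Slc40a1 was not tested.

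Cp (ENSMUSG00000003617, chromosome 3, 19957054 to 20009145, plus strand), ceruloplasmin, is the copper ferroxidase that oxidises exported iron and is made by astrocytes. It was at 27, 12.6 and 30.1 CPM under Control-ASO and at 65, 22 and 25.7 CPM under Snhg11-ASO. Its log2 fold change of 0.69 ± 0.49 rested on Snhg11-ASO replicate 1, without which it was 0.04 ± 0.34, and it was 0.39 without Control-ASO replicate 2. Astrocyte markers summed to 5100, 7410 and 6710 CPM under Control-ASO and to 4420, 7420 and 7430 CPM under Snhg11-ASO. Choroid plexus markers summed to 1960, 41.3 and 1280 CPM under Control-ASO and to 1340, 135 and 75 CPM under Snhg11-ASO. Control-ASO replicate 2 was lowest in Cp and in the choroid plexus sum. Snhg11-ASO replicate 1 was highest in Cp, and Control-ASO replicate 1 in the sum. The part of choroid plexus or of astrocytes in Cp was not tested.

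The iron sensors had the smallest standard errors of the 10 genes. Aco1 (ENSMUSG00000028405, chromosome 4, 40143081 to 40198338, plus strand), which acts as cytosolic aconitase with its iron-sulfur cluster and as iron regulatory protein 1 without it, was at 29.4, 32.3 and 29.2 CPM under Control-ASO and at 30.3, 28.7 and 29.9 CPM under Snhg11-ASO. Its log2 fold change was -0.03 ± 0.1. Ireb2 (ENSMUSG00000032293, chromosome 9, 54863789 to 54912530, plus strand), iron regulatory protein 2, was at 64.7, 68.7 and 63.9 CPM under Control-ASO and at 76, 58 and 53.4 CPM under Snhg11-ASO. Its log2 fold change was -0.07 ± 0.14. Replicate 1 lay above the controls and replicates 2 and 3 below them, and without replicate 1 the log2 fold change was -0.24 ± 0.08.

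**Figure D4:**
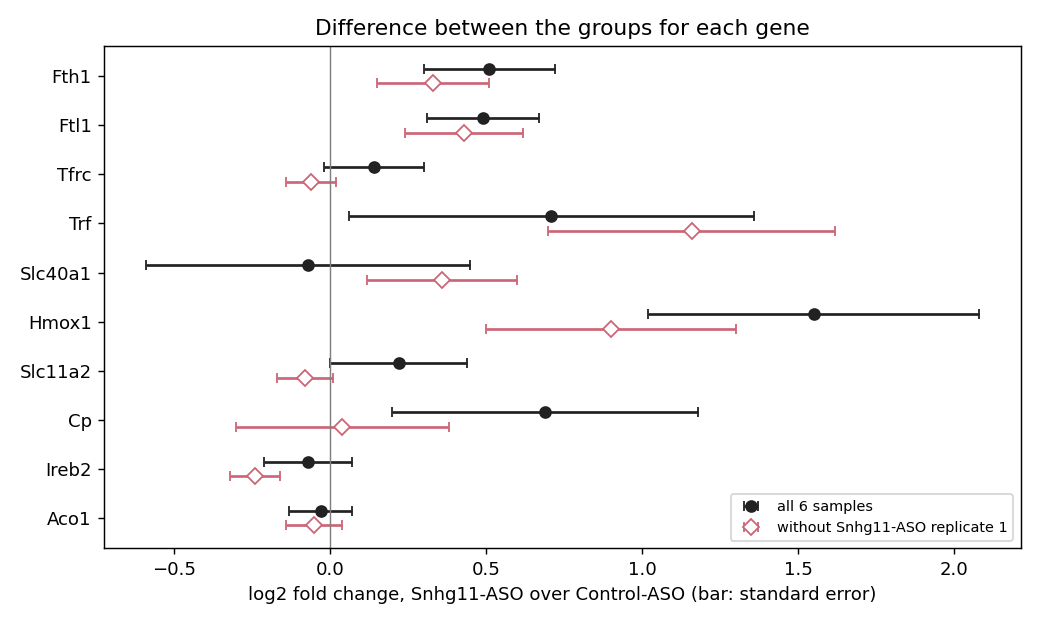
Log2 fold change of Snhg11-ASO over Control-ASO for each of the 10 genes with its standard error, from all 6 samples (filled circles) and without Snhg11-ASO replicate 1 (open diamonds). Fth1, Ftl1 and Hmox1 stay above 0 in both fits, whereas Tfrc, Slc11a2 and Cp move to about 0 and Trf and Slc40a1 move upward without that library.

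Over the list, 7 of the 10 genes had a log2 fold change above 0 and the median was 0.36, beside a median of 0.01 and 51.7% above 0 over all genes tested. Without Snhg11-ASO replicate 1, 6 were above 0 and 4 below, and the median was 0.18. No member was among the genes called at an adjusted p under 0.05 by edgeR (0% of all genes tested) or by DESeq2 (1.35% of all genes). The groups did not overlap, with Snhg11-ASO higher, for 2 of the 10 genes (7.73% of all genes), and for 3 with DESeq2 size factors, without the filter or with both strands counted. None of the 10 was lower in every Snhg11-ASO sample (7.7% of all genes). Since the list was selected on this comparison, nothing is read from these counts. Without Snhg11-ASO replicate 1, Fth1 joined Ftl1 and Hmox1 among the genes apart and higher, and Slc11a2 and Ireb2 were apart and lower. These are counts of 2 against 3 samples, where 14.7% and 13.7% of all genes are apart in these directions.

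The genes nearest to Fth1 in pattern were sought among 3706 other genes with a mean of at least 50 CPM, by the mean absolute difference of their centred log2 CPM over the 6 samples. The nearest was Skil, a repressor of TGF-beta signalling, at 0.0698, with 127, 160 and 145 CPM in Control-ASO and 257, 194 and 186 CPM under Snhg11-ASO. It was followed by the transcription factor Klf13 (0.0897), Ftl1 (0.0906), the matrix protein Matn2 (0.093) and the lipid exporter Abca1 (0.0958). The likeness includes the difference between the groups and the high value of Snhg11-ASO replicate 1, which these genes share with Fth1.

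Other genes of iron handling were taken from 5 lists with 97 genes in all, of which 92 could be tested. The lists were written from general knowledge, but with earlier results of these data known, so they are not independent of them. None was called at an adjusted p under 0.05 by edgeR's quasi-likelihood test, and 7 (7.61%) had an unadjusted p under 0.05, near the 8.11% of all genes. Of 24 genes of uptake and transport, 16 were higher and 8 lower in Snhg11-ASO, with a median log2 fold change of 0.12. In this list Hpx, the plasma scavenger of free heme, was scarce at 0.327 to 0.386 CPM in Control-ASO and 0.479 to 0.892 CPM in Snhg11-ASO, with a log2 fold change of 0.94 ± 0.34 and an adjusted p of 0.57 in edgeR. Steap4, a ferrireductase induced in inflammation, was at 1.51 ± 0.771 and 3.79 ± 2.05 CPM (SD, n = 3 per group), with a log2 fold change of 1.33 and an adjusted p of 0.577 in edgeR. Without Snhg11-ASO replicate 1 this fold change was 0.8. Hpx was higher in all 3 treated samples than in any control, and Steap4 as well, although its groups met at 2.38 CPM. Without Snhg11-ASO replicate 1 the median of the list was -0.03, with 10 genes higher and 14 lower.

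The 11 genes of iron storage and regulation had a median log2 fold change of 0.08, and none had an unadjusted p under 0.05. The most abundant was Herc2, a ubiquitin ligase, at 546 ± 25.3 and 548 ± 64.1 CPM (SD, n = 3 per group). Ncoa4, the receptor that delivers ferritin to autophagy, was at 28.2 ± 1.05 and 29.8 ± 1.4 CPM (SD, n = 3 per group), with overlapping groups. The 16 genes of heme synthesis and breakdown had a median of 0.01, with 9 higher, 7 lower and none at an unadjusted p under 0.05. Alas1, the first enzyme of heme synthesis in most tissues, was level at 51.3 ± 1.54 and 51 ± 1.74 CPM (SD, n = 3 per group).

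Genes of iron-sulfur cluster assembly were centred near 0. Of 22 genes, 14 were lower and 8 higher, with a median of -0.04. Lyrm4, which stabilises the cysteine desulfurase of the assembly complex, was at 11.6 ± 0.438 CPM in Control-ASO and 8.49 ± 1.84 CPM in Snhg11-ASO (SD, n = 3 per group). Its log2 fold change was -0.45 ± 0.19, with an adjusted p of 0.608 in edgeR, and -0.29 ± 0.11 without Snhg11-ASO replicate 1. All Snhg11-ASO samples were below all Control-ASO samples.

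The list of oxidative stress and ferroptosis held the most genes that were higher. Of 19 genes, 18 had a log2 fold change above 0, the median was 0.19, and 6 had all Snhg11-ASO samples above all Control-ASO samples (7.73% of all genes). The unadjusted p of edgeR was under 0.05 for 4 of the 19 (21.1%, beside 8.11% of all genes), and 0 passed after adjustment. With the replicate block 1 of the 19 had an unadjusted p under 0.05. The 4 genes were Mt2, Mt1, Gsr and Nfe2l2. Mt2, a metallothionein that binds zinc and copper, had 44.1, 69.5 and 66.4 CPM under Control-ASO and 335, 90.1 and 106 CPM under Snhg11-ASO. Its log2 fold change was 1.56 ± 0.51, with an adjusted p of 0.544 in edgeR and 0.0485 in DESeq2. Without Snhg11-ASO replicate 1 the log2 fold change was 0.7. Mt1 had the same shape, at 105, 155 and 154 CPM under Control-ASO and 602, 171 and 197 CPM under Snhg11-ASO, with a log2 fold change of 1.23 ± 0.48 and an adjusted p of 0.591 in edgeR, and 0.41 without that library. Nfe2l2, which encodes Nrf2, differed from these in being highest in Snhg11-ASO replicate 3, at 28.1 CPM against 18.6 and 20.6 CPM in replicates 1 and 2 and at most 17.1 CPM in Control-ASO, with an adjusted p of 0.583 in edgeR. On the log2 scale the fold change of Nfe2l2 was 0.52, and 0.33 without replicate 3. Gsr and Nqo1 are known targets of Nrf2, and they do not stand for all of its targets in the list. Gsr was at 24 ± 3.7 and 35.2 ± 8.96 CPM with groups apart (adjusted p = 0.574 in edgeR), and Nqo1 at 4.23 ± 0.196 and 4.53 ± 0.71 CPM with overlapping groups (SD, n = 3 per group). For Gsr the log2 fold change was 0.55, and 0.32 without Snhg11-ASO replicate 1. Without that library, 16 of the 19 genes were higher and the median was 0.1.

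**Figure D5:**
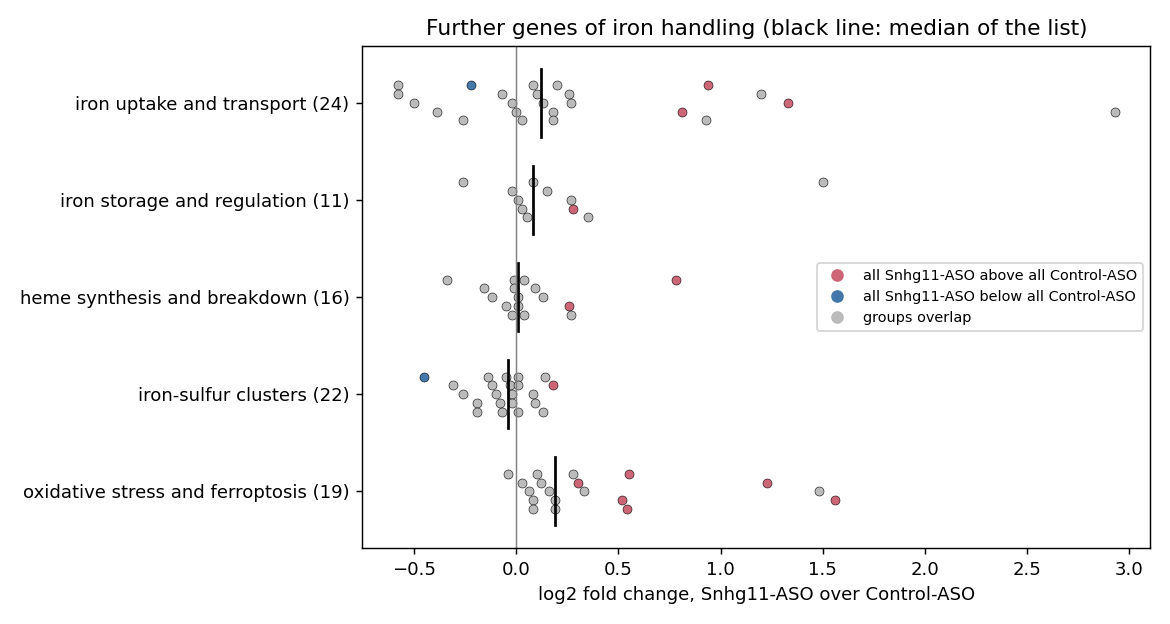
Log2 fold change of Snhg11-ASO over Control-ASO for the 92 tested genes of 5 further lists, one point per gene, with the median of each list as a black line and colours for genes whose groups do not overlap. Of the oxidative stress list 18 of 19 points lie above 0, and the iron-sulfur list is centred at -0.04.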

How the data were processed

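RNA of 6 dorsal hippocampi was sequenced from stranded, ribo-depleted libraries. The authors aligned reads to mm10 with STAR 2.5.2a and deposited raw counts of read pairs per gene, with no normalization or pooling. Their methods name Rsubread, while the deposited tables have the layout of STAR. Counts of the expected strand (96.2% to 96.8% of stranded counts) were used. Summary lines that name no gene held 43.5% to 51.4% of pairs and were left out. Genes were named by GENCODE M21, which matched 55141 of 55401 identifiers, and Hjv was matched through its older symbol Hfe2. Genes were filtered with filterByExpr (minimum count 10), scaled with TMM and compared with edgeR 4.0.16 (quasi-likelihood test, Benjamini-Hochberg over all 19969 genes, threshold 0.05, R 4.3.3). Log2 CPM used a prior count of 2. Standard errors are the fold change over the root of its F statistic. The methods were tested on simulated counts. There edgeR recovered fewer of the changed genes than first required, and the requirement was lowered with the method unchanged. Where no gene was changed, DESeq2 made more calls than edgeR. The counts were drawn with edgeR's own dispersion estimates and without an outlying library. They therefore do not rank the methods for these data. DESeq2, the method of the study, is given as an alternative only.

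The members and gene lists were chosen with earlier results of these data known. Of the further lists, genes are named for an unadjusted p under 0.05 (at most 4 each), or else for the highest mean CPM. Hmox2, Ncoa4 and Nqo1 were named in addition, after their values were seen. Not tested for low counts were Ltf, Hp, Ftmt, Hamp and Hjv. Alternatives were DESeq2 1.42.0, its size factors, no filter, both strands, a replicate block, offsets for genomic span, leaving out each sample, and other lengths for TPM. The block with span offsets and the length of protein-coding transcripts were added after the data were seen. The study's methods left out 1 Snhg11-ASO sample that they do not name, and all were kept here. Centred on its group, each sample was correlated with the sample of the same number in the other group. This gave 0.297, 0.179 and 0.103, each above 0.1. Samples of unlike numbers were not correlated in this way, so these values do not establish a pairing. The main fits leave replicate numbers out, and the replicate block is given as an alternative. Nothing in the sources states how the animals were assigned to replicate numbers. The p-values set the difference between the groups against a spread estimated from these samples.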

Additional observations from a re-analysis of the deposited data

How the results depend on the processing

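None of the 10 iron genes was called under any of 13 alternatives. Over all genes, edgeR called 0, DESeq2 251, and edgeR 0 to 2 with each sample left out, the 2 without Snhg11-ASO replicate 1. Of the further iron genes, 0 were called in edgeR and 1, Mt2, in DESeq2. The further genes at an unadjusted p under 0.05 numbered 7, 12 without a filter, and 2 to 13 with each sample left out, with 3 and 2 without Control-ASO replicates 1 and 3 and 13 without Snhg11-ASO replicate 2. Members with all Snhg11-ASO samples below all Control-ASO samples numbered 0, and 0 to 2 with each sample left out, the 2 without Snhg11-ASO replicate 1. With each sample left out the log2 fold changes spanned 0.33 to 0.69 for Fth1, 0.31 to 0.67 for Ftl1 and 0.9 to 2.13 for Hmox1. Herc2 turned from 0.01 to -0.01 without a filter and 0 with the replicate block, and spanned -0.08 to 0.09 with each sample left out, while Alas1 spanned -0.03 to 0.02. The replicate block changed no call. Fth1 TPM over Ftl1 TPM in Control-ASO was 2.25, 2.74 with the longest annotated transcript and 3.78 with the longest protein-coding one, which follows from the lengths used. The cause of the other changes was not tested. Levels of Ftl1 and Trf are limited by pairs the aligner could not place on 1 gene.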

Other observations

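Some further values of iron-related and inflammatory genes, chosen after they were seen, stood out in Snhg11-ASO replicate 1. Lcn2, a secreted protein that binds iron-carrying siderophores, was at 135 CPM there, against 7.23 and 5.84 CPM in Snhg11-ASO replicates 2 and 3 and a Control-ASO mean of 6.46 ± 3.48 CPM (SD, n = 3). Slc39a14, a transporter of zinc, manganese and iron that is not bound to transferrin, was at 202 CPM in the same library and at 43 and 39.3 CPM in the other Snhg11-ASO samples, beside 41.3 ± 6.69 CPM in Control-ASO (SD, n = 3). Lgals3, a galectin of activated phagocytes, was higher in all Snhg11-ASO samples, at 22.9, 10.3 and 10.7 CPM against a Control-ASO mean of 3.41 ± 1.63 CPM (SD, n = 3), with a log2 fold change of 2.1 (adjusted p = 0.439 from edgeR). These values are given with no explanation.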
